A study of Mus musculus with 12 samples.

Results

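A group of imprinted genes at loci with known YY1 sites was followed through the YY1 peak lists of Lin− bone marrow cells: Peg3, Usp29, Gnas, Nespas, Mest, Snrpn, Plagl1, Kcnq1ot1, Peg10 and Impact. They were taken by name from the 55450 genes of the GENCODE M21 annotation (mouse build mm10, GRCm38), so 10 genes of 55450 are described. A peak was assigned to a gene when it lay in the gene body or within 5 kb of any annotated transcript start. Chromatin immunoprecipitation followed by sequencing (ChIP-seq) with an antibody against YY1 had been carried out in 2 libraries from wild-type (WT) and 2 from XistΔ/Δ mice, in order to ask how YY1 binding differs when Xist, the long noncoding RNA that coats the inactive X chromosome, is lost. All mice were female, 3 months of age and of the strain 129Sv4/Jae x B6, and the cells were bone marrow Lin− cells, that is, marrow depleted of lineage-marked (mature) blood cells and so enriched for stem and progenitor cells. XistΔ/Δ mice came from a floxed (2lox) Xist allele and Vav-iCre, a Cre transgene under regulatory DNA of Vav1, a gene of blood cells, that is inserted at Commd10. The labels do not say whether WT mice carried the transgene, or whether libraries of a genotype came from separate mice, so p-values measure only the spread between these libraries. The other 8 samples of the series, of histone marks, were not analysed here.

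Imprinted genes are transcribed from the maternal or the paternal copy only, according to DNA methylation laid down in the germ line at control regions. The zinc-finger protein YY1 recognises a short motif with the core GCCAT and binds at many promoters. At some imprinted control regions its motif occurs in tandem, as at Peg3 and Nespas, and methylation of the CpG within the motif is known to block its binding, which is why these loci have been studied as YY1 targets. The lists carry no allelic information, so peaks on the maternal and the paternal copy cannot be told apart.

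The 4 libraries differed in depth by replicate number more than by genotype. WT replicates 1 and 2 had 24.9 M and 50 M tags (M, mega) and 9553 and 15933 peaks, and XistΔ/Δ replicates 1 and 2 had 23.1 M and 59.5 M tags and 10075 and 18113 peaks. To be called, a peak needed 22 tags in either replicate 1 library, 33 tags in WT replicate 2 and 37 tags in XistΔ/Δ replicate 2. Per tag sequenced, the threshold was thus lower in the replicate 2 libraries. Peak width was the only graded measure, since the score was the same for every peak, and the most frequent width, 501 bp, accounted for 18.5% to 24% of each list. Over a start of Xist, both WT libraries had a peak (3083 and 3222 bp) and neither XistΔ/Δ library had one. Among genes that mark blood stem and progenitor cells, 7 of 10 had a YY1 peak in all 4 libraries, against 0 of 6 markers of mature lineages and 0 of 6 markers of other tissues. A YY1 peak is no measure of expression, so these counts are a description of the lists.

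The DNA letters at Peg3 and Usp29 are given first, because 8 of the 10 YY1 motif matches covered by a peak lie there. Peg3 (ENSMUSG00000002265.16, chr7:6703892-6730431, minus strand) encodes a zinc-finger protein expressed from the paternal copy. Usp29 (ENSMUSG00000051527.11, chr7:6730578-6967219, plus strand), a gene of the ubiquitin-specific protease family, starts beside it on the other strand. The core motif was searched as GCCATNTT and, in a longer form, as AAGATGGCG (CGCCATCTT on the other strand), on both strands of the reference, and the forms overlap. In an intron of Peg3, 12 core matches lay in a run of 2296 bp (chr7:6727301-6729596, mm10), all on the strand of Peg3, and 10 of them belonged to the longer motif. The 12 sites are shown as 30 bases of reference sequence in the direction of Peg3, with the core match in capitals, in order of the distance from the Peg3-203 start to the last base of the match.
Site at 830 bp: acccagttggcGCCATCTTggagggtggag
Site at 936 bp: gcccgcttggcGCCATCTTgaaatgaccgc
Site at 1539 bp: cccatcctggcGCCATCTTtcctggccaag
Site at 1680 bp: cctaccctgacGCCATCTTtgctggctgat
Site at 1968 bp: cccaatttggcGCCATCTTtgccagcaata
Site at 2017 bp: atggtgcagacGCCATCTTgaatgacaggc
Site at 2156 bp: tcactgaaggtGCCATTTTgattgacagct
Site at 2455 bp: gcccacctgacGCCATCTTtgctgacgttt
Site at 2485 bp: ctggtgcagtaGCCATCTTgaatgacagct
Site at 2574 bp: cccacctgggcGCCATCTTtacttgtcatg
Site at 2996 bp: ctccctctggcGCCATCTTtgttggccaca
Site at 3118 bp: ccttcattggcGCCATCTTtgttggccaca
The sites at 2156 and 2485 bp are the ones outside the longer motif. In both, the core is not preceded by the C that the longer motif requires, so it is not joined to a CpG there.

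A run was defined as core matches on one strand with at most 1 kb between neighbours, and this definition was chosen after the Peg3 matches had been seen. Of 549813 such runs in the genome, 21 (0.00382%) held 12 or more matches. Spacings within the Peg3 run went from 30 to 603 bp, with a median of 139 bp. Over its whole window Peg3 had 19 core matches, or 6.02 per 10 kb, against 2.34 per 10 kb in the genome.

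Peaks over this run differed between libraries (plot of the Peg3 and Mest loci). Region 1 (chr7:6727615-6728527), centred 2348 bp inside Peg3 and in no annotated exon, was called at a width of 630 bp (percentile 23.9) in WT replicate 1, at 913 bp (percentile 62.6) in XistΔ/Δ replicate 1, and not at all in the replicate 2 libraries. The deeper libraries were thus those without a peak, in both genotypes. Such a pattern was rare: 15 of 19768 merged regions (0.0759%) had peaks in both replicate 1 libraries and in neither replicate 2 library, and by mean width percentile the Peg3 region was at place 3 of those 15. Some of them lay close together, as at chrX:48414441-48415618, chrX:48416562-48417195 and chrX:48417698-48418324, so the 15 regions stand for fewer separate loci. Region 2 (chr7:6729136-6729716), centred 993 bp inside Peg3, had a peak of 501 bp in WT replicate 2, XistΔ/Δ replicate 1 and XistΔ/Δ replicate 2, and none in WT replicate 1. Each library therefore had a peak somewhere over the run, and XistΔ/Δ replicate 1 was the library with both.

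Of the 12 sites, 8 lay in a peak of at least 1 library. WT replicate 1 covered 5, XistΔ/Δ replicate 1 covered 8, and each replicate 2 library covered 2, which were the sites at 830 and 936 bp. The sites at 1539, 1680, 2996 and 3118 bp, all of the longer motif, were in no peak. Region 1 held 6 core matches, a number that 0.126% of windows of the same length at the centres of all regions reached, and 4 matches of the longer motif, reached by 0.0101%. Region 2 held 2 core matches and 2 of the longer motif, reached by 1.63% and 0.086% of windows of its length.

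**Figure D1:**
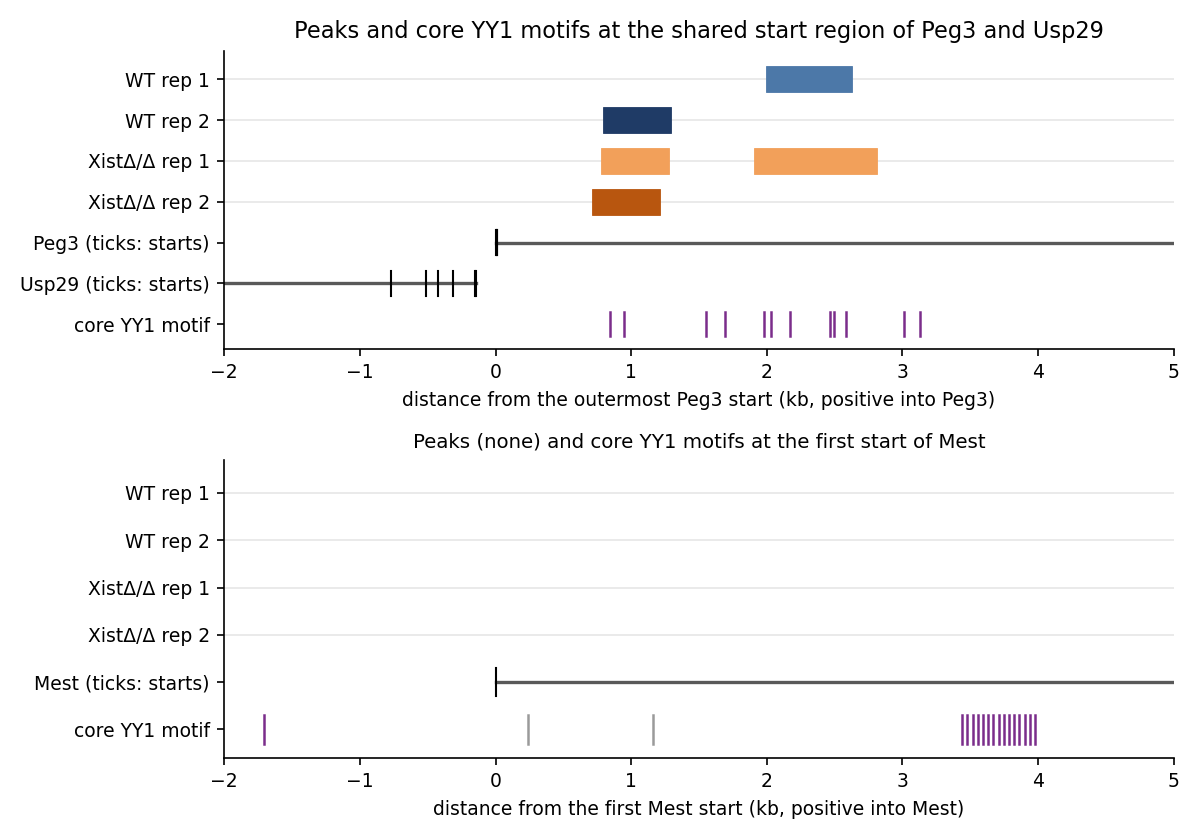
YY1 peaks (coloured bars, one row per library) and core YY1 motif matches (ticks; purple on the strand of the gene, grey on the other strand) at the shared start region of Peg3 and Usp29 and at the first start of Mest, by distance from the start in kb; grey lines are gene bodies and black ticks transcript starts. At Peg3 the replicate 1 libraries have a peak over the middle of the run of 12 matches and 3 libraries have one at its promoter side, while the run of 15 matches at Mest has no peak in any library.

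In both replicate 1 lists the region 1 peak also came early. The headers do not explain the order of the lists, so places were compared among peaks of like width. Among peaks within 50 bp of the same width, 0.49% came before it in WT replicate 1 and 1.6% in XistΔ/Δ replicate 1. The region 2 peaks had no such common place, with 4.68%, 76.4% and 33% of like-width peaks ahead of them in WT replicate 2, XistΔ/Δ replicate 1 and XistΔ/Δ replicate 2. Of the 15 regions seen in the replicate 1 libraries alone, 5 held a core match and 2 the longer motif, against 24.9% and 4.54% of all regions. These counts include the Peg3 region, and outside it each region held at most 1 match of either kind. The part that depth or replicate number has in this pattern was not tested.

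No peak of any library covered an annotated start of Peg3 or Usp29. The Usp29 window spans 242 kb and 76 core matches, yet its peaks in all 4 libraries were the same ones as those of Peg3, within 5 kb of its first start. Peg3 and Usp29 are therefore 2 genes with 1 set of peaks, and they are counted separately below only because the rule is by gene. Their summed peak width was 630, 501, 1414 and 501 bp in WT replicates 1 and 2 and XistΔ/Δ replicates 1 and 2, with means of 566 ± 91.2 bp in WT and 958 ± 646 bp in XistΔ/Δ (SD, n = 2; two-sided exact permutation test, p = 1).

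Gnas had the widest peaks of the 10 genes. The locus (ENSMUSG00000027523.19, chr2:174284320-174346744, plus strand) produces 24 annotated transcripts from 16 starts and several alternative first exons, among them the neuroendocrine protein Nesp55 from the maternal copy, XLαs and the untranslated exon 1A transcripts from the paternal copy, and the G protein subunit Gsα, which stimulates adenylyl cyclase and is made from both copies in most tissues. Nespas (ENSMUSG00000086537.7, chr2:174281237-174295436, minus strand) is the paternal antisense transcript that runs from upstream of the XLαs start across the Nesp55 promoter. Peaks at Gnas formed 6 regions, of which 1 was called in all 4 libraries.

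That region, Gnas region 4 (chr2:174328629-174332445), covered the starts of Gnas-207, Gnas-208, Gnas-206 and Gnas-205, the starts at the first exon of Gsα. Its widest peak measured 3486 bp in WT replicate 1, 3739 bp in WT replicate 2, 1897 bp in XistΔ/Δ replicate 1 and 3594 bp in XistΔ/Δ replicate 2. These widths stood at percentiles 99.4, 99, 95.6 and 99 of their libraries, so in each library it was wider than at least 95.6% of peaks. The value that stands apart is that of XistΔ/Δ replicate 1, where the interval was split into peaks of 1897 and 775 bp. The mean was 3612 ± 179 bp in WT and 2746 ± 1200 bp in XistΔ/Δ (SD, n = 2), a difference of -867 bp within the spread between libraries (two-sided exact permutation test, p = 0.667; adjusted p = 1 over the 7757 regions called in every library). Of those 7757 regions, 1.77% were wider and 6.46% narrower in both XistΔ/Δ than in both WT libraries, and the Gnas region was neither. The groups overlapped, and without XistΔ/Δ replicate 1 the difference was -18.5 bp. Within each replicate number the XistΔ/Δ peak was the narrower one (exact sign-flip test with the replicate block, p = 0.5).

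Upstream of it, Gnas region 3 (chr2:174327171-174328197) covered the starts of Gnas-212, Gnas-221, Gnas-219, Gnas-217, Gnas-202 and Gnas-218, which lie where the exon 1A promoter is known. Its peak was 1009 bp wide in WT replicate 2, 501 bp in XistΔ/Δ replicate 1 and 983 bp in XistΔ/Δ replicate 2, and WT replicate 1 had none. In both replicate 2 libraries the peak spanned all 6 starts, and in XistΔ/Δ replicate 1 it spanned 3. The annotated gene Gm20721 overlaps regions 4, 5 and 6. Downstream, in the first part of the Gsα transcripts, region 5 (chr2:174332993-174333891, no exon) had peaks of 501, 755 and 628 bp in WT replicate 1, WT replicate 2 and XistΔ/Δ replicate 2. It was missing in XistΔ/Δ replicate 1, and here too the XistΔ/Δ value was the lower one within each replicate number.

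The remaining Gnas regions were seen in 1 library each, at 501 bp. Region 1 (chr2:174295792-174296292) was called in WT replicate 2, and regions 2 (chr2:174315784-174316284) and 6 (chr2:174342459-174342959) were called in XistΔ/Δ replicate 2. All 3 came from the deeper libraries, and with Impact region 1, described further on, they made up the 4 of 14 regions called in 1 library only, against 28.3% of all regions. The starts at 174284320, 174285256 and 174285358, where the Nesp55 transcripts begin, and the start at 174297859 shared by 7 transcripts, where XLαs begins, had no peak over them or within 1 kb in any library. The starts of Gnas-216 and Gnas-213, far inside the gene, also had no peak over them. Of the alternative promoters of Gnas, peaks thus covered those of exon 1A and Gsα only.

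**Figure D2:**
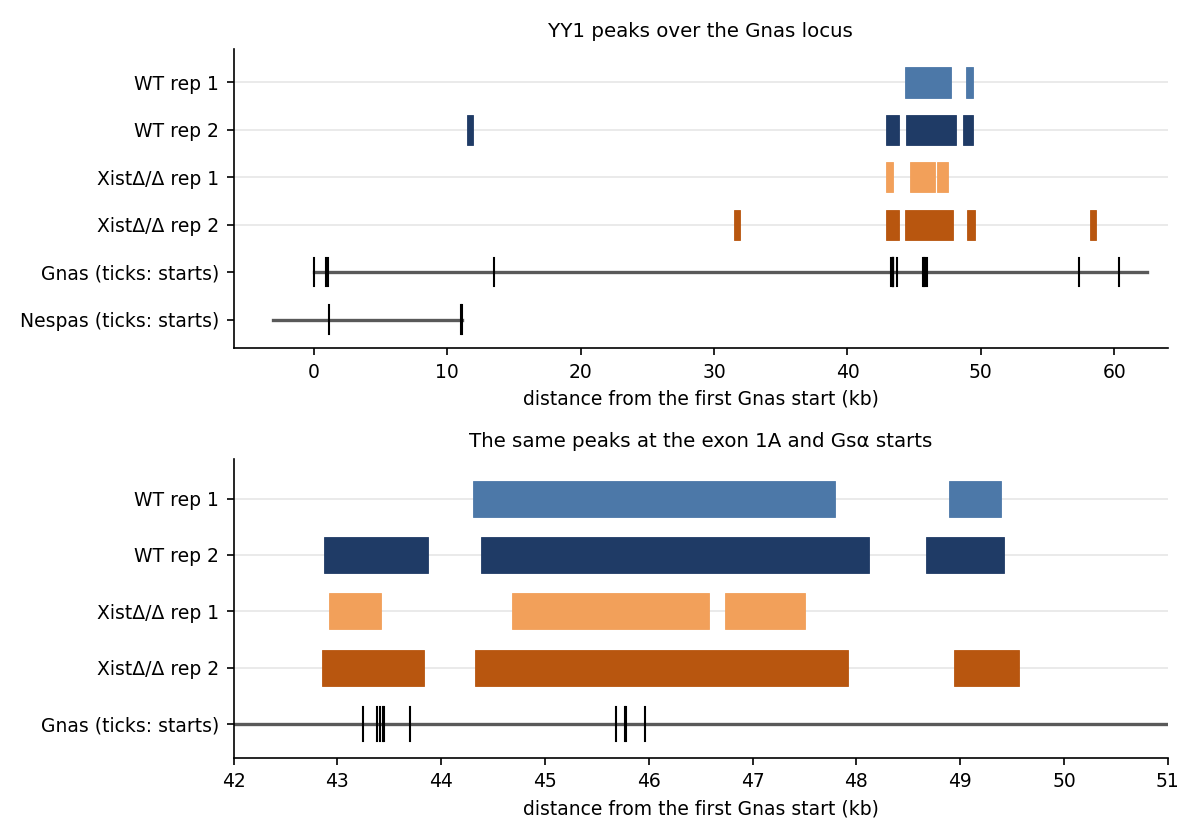
YY1 peaks (bars, one row per library) over the whole Gnas locus and, below, over the exon 1A and Gsα starts, by distance in kb from the first Gnas start; grey lines are gene bodies and black ticks transcript starts. All 4 libraries have a wide peak over the Gsα starts, 3 have one over the exon 1A starts, and none has one over the starts at the left end of the locus.

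Unlike the Peg3 regions, Gnas region 4 held no match of the core motif over its 3817 bp, where 54.1% of windows of that length at the centres of regions held at least 1. Its GC content was 60%, and its CpG ratio (CpG observed over the number that its C and G content would give) was 0.811, above 98.7% of windows of the same length, whose median was 0.34. Region 3 also had no core match, and its CpG ratio of 0.818 was above 83.2% of windows of its length, whose median was 0.452. A window of 3817 bp reaches past the ends of most peaks, whose median width was 777 to 925 bp per library. Its core matches and CpG ratio thus include flanking DNA. The median of windows depended on their length, with 0.486 at 501 bp and 0.34 at 3817 bp. The percentiles of regions 3 and 4 therefore cannot be set against each other. The CpG ratio of Peg3 region 1 was 0.281, below the median of 0.46 for its length, while that of Peg3 region 2 was 0.576, above its median of 0.483.

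Regions 5 and 6 of Gnas each held 1 core match, shown here with the match in capitals as the contrast to the CG-flanked Peg3 sites. Neither is part of the longer motif.
Gnas region 5 (chr2:174333423-174333430): aggtctcaagtGCCATGTTtgataacgaaa
Gnas region 6 (chr2:174342790-174342797): gtgggtaggctGCCATTTTgtctctgtgaa
The nearest core match to the wide region lies just outside it, at chr2:174328559-174328566, between regions 3 and 4 and in no peak.

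Nespas had 1 peak, that of Gnas region 1, in WT replicate 2. Its centre lay at -606 bp from the Nespas-203 start and at -1817 bp from the nearest Gnas start, upstream of both. Of the 5 core matches in the Nespas window, none lay in a peak of any library. They amount to 2.5 per 10 kb, against 2.34 in the genome. The longest run there, as defined for Peg3, held 2 matches, a number that 10.6% of runs in the genome reached. The 2 matches nearest the Nespas-202 and Nespas-203 starts are shown, read on the strand opposite to Nespas, because they flank the region where the antisense transcript begins.
Nespas at 633 bp from the Nespas-202 start: ccattccaggcGCCATTTTctccatctggt
Nespas at -197 bp from the Nespas-203 start: caaaccgtttcGCCATTTTgagtgtgtgtg
The only peak near Nespas did not reach either of them, and the other 3 libraries had no peak within 20.3 kb of the Nespas body.

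Mest, Snrpn and Plagl1 had no peak in any library. Mest (ENSMUSG00000051855.15, chr6:30723547-30748465, plus strand) encodes a protein of the hydrolase fold. Snrpn (ENSMUSG00000102252.5, chr7:59982495-60140219, minus strand) encodes a core protein of the spliceosome, and Plagl1 (ENSMUSG00000019817.18, chr10:13060504-13131694, plus strand) a zinc-finger factor. All 3 are expressed from the paternal copy. Across all genes 69.7% had no peak in any library, and across protein-coding genes 46.1%. The nearest peak to the gene body was 29.5 to 29.6 kb away for Mest, 51.4 to 51.9 kb for Plagl1 and 752 to 753 kb for Snrpn. These distances were nearly the same in all 4 libraries, so the nearest peak was at about the same place whatever the depth.

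At Mest the absence of peaks stood beside the run with the most core matches of the 10 genes. Its window held 21 core matches, or 7.02 per 10 kb, and 15 of them formed a run of 543 bp (chr6:30726988-30727530), with spacings of 38 to 39 bp. Of all runs in the genome, 10 (0.00182%) held as many. All 15 matches lay on the strand of Mest, and none belonged to the longer motif. The CpG-rich starts of Mest, at 30738050 to 30738055 (CpG ratio 0.778 to 0.781), lie further into the gene and had 0 core matches within 1 kb. The repeat unit is shown by 4 of the 15 sites, with the match in capitals and the distance from the Mest-201 start to the first base of the match.
Mest at 3441 bp: ttattcaaattGCCATGTTagcctggggtg
Mest at 3479 bp: cctccaagcctGCCATGTTagtcctggggt
Mest at 3710 bp: cctccaggcctGCCATGTTagcccggggtg
Mest at 3976 bp: cctccaggcctGCCATGTTagcccggggtg
In these sites the core is GCCATGTT and is preceded by T, whereas 10 of the 12 Peg3 sites read CGCCATCTT. Reads of low mapping quality had been removed before peaks were called, and the lists do not give how many reads fell on this repeat.

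Kcnq1ot1 and Peg10 had peaks at or near their starts in some libraries. Kcnq1ot1 (ENSMUSG00000101609.2, chr7:143203458-143296549, minus strand) is a long noncoding RNA transcribed from the paternal copy, antisense within Kcnq1, and is known to silence neighbouring genes in cis. Its region 2 (chr7:143295423-143296843) covered the only annotated start, with peaks of 1421 bp in WT replicate 2, 907 bp in XistΔ/Δ replicate 1 and 1217 bp in XistΔ/Δ replicate 2, at percentiles 73.6, 61.8 and 69.3. WT replicate 1 was without a peak, and its nearest one lay 134 kb from the gene body. Region 1 (chr7:143294056-143294966), centred 2038 bp inside the transcript, had peaks of 889 and 908 bp in WT replicate 2 and XistΔ/Δ replicate 2, the deeper libraries.

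Both Kcnq1ot1 regions lie in the body of Kcnq1, a potassium channel gene, so Kcnq1 shares them, and region 1 also overlaps the annotated gene Gm27539. Neither held a core match. Of the 21 core matches in the 98.1 kb window of Kcnq1ot1, none lay in a peak. The CpG ratio of region 2 was 0.754, above 80.6% of windows of its length, and that of region 1 was 0.154, above 11.1%.

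Peg10 (ENSMUSG00000092035.8, chr6:4747306-4760517, plus strand), a gene derived from a retrotransposon and expressed from the paternal copy, had 1 region (chr6:4748296-4748984), centred 1234 bp inside the gene in no annotated exon. WT replicate 2 had a peak of 501 bp there and XistΔ/Δ replicate 2 one of 630 bp. The replicate 1 libraries had none. A peak in both replicate 2 libraries and in neither replicate 1 library was found in 3.23% of all genes and 4.92% of protein-coding genes. The Peg10 peak lies within 5 kb of a start of Sgce, the neighbouring imprinted gene that encodes a sarcoglycan. Among the 10 genes, Peg10 was the one without a core match anywhere in its window of 18.2 kb.

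Impact (ENSMUSG00000024423.6, chromosome 18, 12955852 to 12992950, plus strand) encodes an inhibitor of the translational kinase GCN2 and is expressed from the paternal copy. It had 3 regions at 3 groups of starts, each peak 501 bp wide, and no library had all of them. Region 1, at 12955502 to 12956002, covered the starts of Impact-206 and Impact-209 and was called in WT replicate 2. Region 2, at 12971855 to 12972545, was called in both XistΔ/Δ libraries, where the replicate 1 peak covered the starts of Impact-201 and Impact-203 and the replicate 2 peak that of Impact-203 only. Region 3, at 12974338 to 12974972, covered Impact-202 and Impact-208 and was called in WT replicate 2 and XistΔ/Δ replicate 2. WT replicate 1 had no peak at Impact, and its nearest one lay 14.1 kb away. The window held 9 core matches, of which none lay in a peak.

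Impact region 2 was the only region of the 10 genes called in each XistΔ/Δ library and in no WT library, a pattern found in 0.885% of all regions, and 0 of the 14 regions had the opposite pattern, found in 0.324%. By gene, none of the 10 had a peak in one genotype alone in this way, against 0.159% of all genes and 0.251% of protein-coding genes for XistΔ/Δ, and 0.0541% and 0.0911% for WT. The 2 peaks had the most frequent width and overlapped only in part. In their lists, 62.6% and 81.6% of peaks of like width stood before them, so they were not early ones. With all lists shortened to equal length (the first 9553 peaks in file order), 0 regions of the 10 genes were wider in both XistΔ/Δ libraries. The XistΔ/Δ replicate 2 peak of Impact region 2, at place 17461, lies past that cut, so this setting could not keep it and is no test of it.

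**Figure D3:**
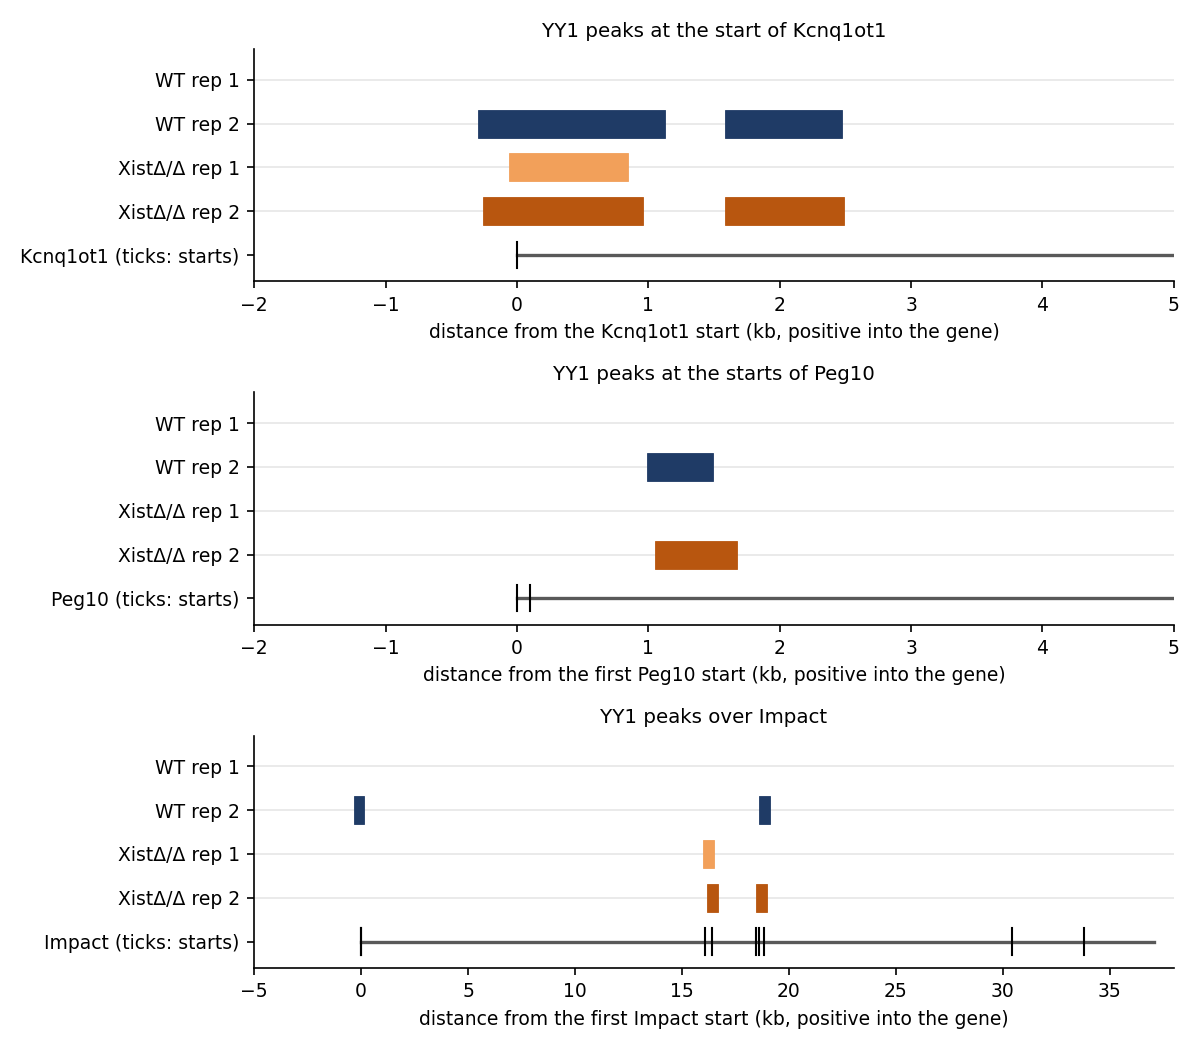
YY1 peaks (bars, one row per library) at Kcnq1ot1, Peg10 and Impact, by distance in kb from the first start, positive into the gene; grey lines are gene bodies and black ticks transcript starts. WT replicate 1 has no peak at any of the 3 genes, and at Impact the peaks of the other libraries fall on 3 groups of starts.

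Taken by gene, 3 of the 10 had a peak in all 4 libraries (Peg3, Usp29 and Gnas), or 30%, against 19.9% of all genes and 37.7% of protein-coding genes. Kcnq1ot1 and Impact had one in 3 libraries, Peg10 in 2 and Nespas in 1. With the rule of at least 2 libraries, 6 of the 10 had a peak, against 27.5% of all genes and 50.1% of protein-coding genes. In at least 1 library, 7 of the 10 had one, against 30.3% and 53.9%. The count of 3 fell to 1 with lists of equal length and with peaks wider than the most frequent width, settings for which the share of all genes was not computed. The first setting keeps the first 9553 peaks of each list in file order, and the second removes all peaks of 501 bp. Both drop the only Peg3 peaks of the replicate 2 libraries (501 bp, at places 12885 and 15728), so the fall followed from the settings. Without WT replicate 1 the count for all remaining libraries was 5, since Kcnq1ot1 and Impact then joined. The windows were long, with a median of 57.1 kb against 10 kb for all genes and 23 kb for protein-coding genes, and a longer window can hold more peaks, so these shares are a description and no test. Counting the shared peaks of Peg3 and Usp29 once would leave 2 loci with a peak in all 4 libraries.

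**Figure D4:**
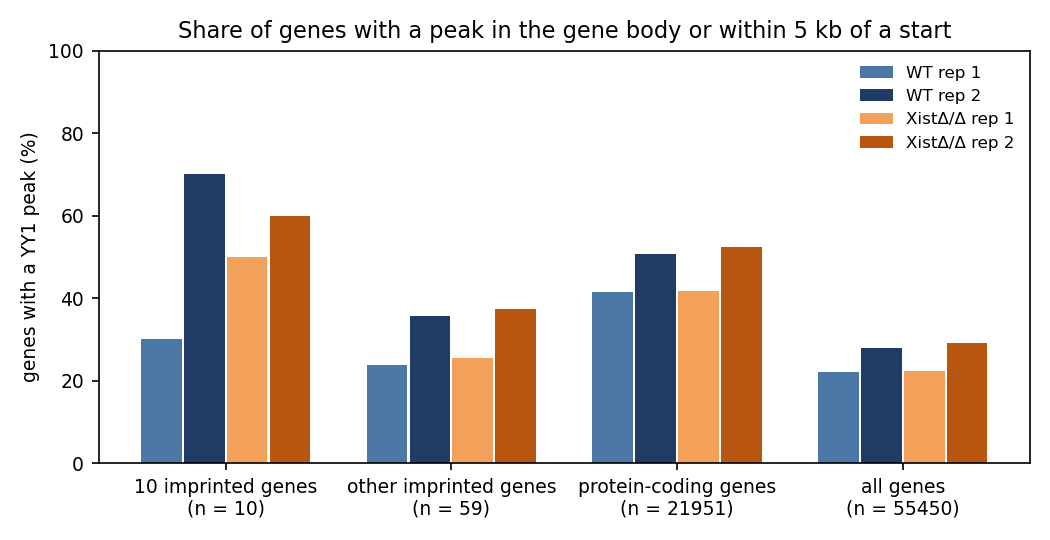
Percentage of genes with at least 1 YY1 peak in the gene body or within 5 kb of a start, per library, for the 10 imprinted genes, 59 other imprinted genes, protein-coding genes and all genes; each bar is 1 library. The 10 genes range from 30% in WT replicate 1 to 70% in WT replicate 2, and protein-coding genes from 41.4% to 52.4%.

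The 10 genes held 14 merged regions of 19768, with a peak in 3 of them in WT replicate 1, 10 in WT replicate 2, 6 in XistΔ/Δ replicate 1 and 11 in XistΔ/Δ replicate 2. Both replicate 2 libraries stood above both replicate 1 libraries. Of the 14 regions, 1 had a peak in all 4 libraries, against 39.2% of all regions, and 10 had one in at least 2, against 71.7%. Peaks in both replicate 2 libraries and neither replicate 1 library were found in 3 of the 14 regions, against 18% of all regions. A core motif match was present in 4 of the 14 (28.6%), against 24.9% of all regions and 36.6% of those called in all 4 libraries. The longer motif was present in 2 of the 14, both at Peg3, against 4.54% of all regions. Over the windows of all 10 genes there were 211 distinct core matches, of which 10 lay in a peak: the 8 at Peg3 and the 2 at Gnas.

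The RefSeq promoter set (GRCm38.p6, 250 bases before to 50 after a start) had 15 entries for 7 of the 10 genes. None of the 15 held the core motif, which 6.05% of all 32851 promoters did.

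The genotypes did not differ over the 10 genes by more than the spread between libraries. The number of genes with a peak was 3, 7, 5 and 6 in WT replicates 1 and 2 and XistΔ/Δ replicates 1 and 2, a mean of 5 ± 2.83 in WT and 5.5 ± 0.707 in XistΔ/Δ (SD, n = 2; two-sided exact permutation test, p = 1). The number of distinct peaks was 3, 10, 7 and 11, or 6.5 ± 4.95 against 9 ± 2.83 (SD, n = 2; two-sided exact permutation test, p = 0.667). Their summed width was 4617, 10318, 5995 and 10465 bp, or 7468 ± 4031 bp against 8230 ± 3161 bp (SD, n = 2; two-sided exact permutation test, p = 0.667). With 2 against 2 libraries the smallest p-value that this test can give is 0.333.

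For each of the 3 values the genotypes overlapped, and the order followed the replicate number: the replicate means were 5 peaks and 5306 bp in replicate 1 against 10.5 peaks and 10392 bp in replicate 2. Within replicate 1 the difference, XistΔ/Δ minus WT, was 2 genes, 4 peaks and 1378 bp, and within replicate 2 it was -1 genes, 1 peak and 147 bp. All 3 signs depended on single libraries: without WT replicate 1 the differences were -1.5 genes, -1 peaks and -2088 bp, and without XistΔ/Δ replicate 2 the summed width differed by -1472 bp. By region, 1 of the 14 (Impact region 2) had a wider peak in both XistΔ/Δ libraries than in both WT libraries, against 2.01% of all regions, and 0 had a narrower one, against 3.27%. With the replicate block, that is, within both replicate numbers, 2 regions were narrower in XistΔ/Δ (Gnas regions 4 and 5). Leaving out 1 library moved these counts to at most 5 (without XistΔ/Δ replicate 1) and at most 6 (without WT replicate 1). The shares of all regions were not computed for the block or with a library left out, so these counts are a description only.

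**Figure D5:**
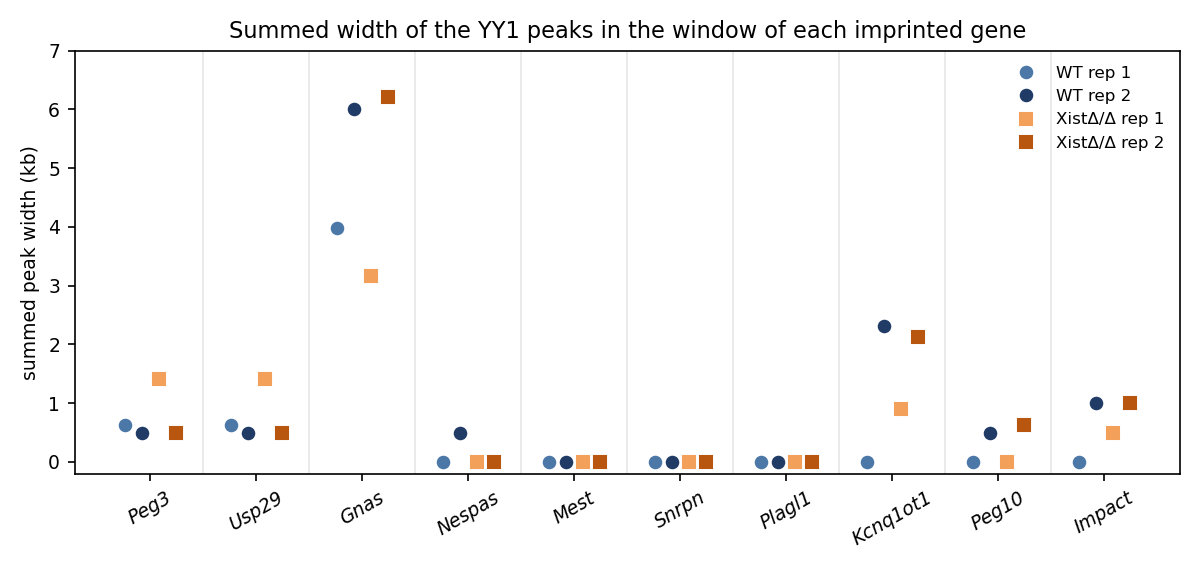
Summed width in kb of the YY1 peaks in the window of each of the 10 imprinted genes; each point is 1 library (circles WT, squares XistΔ/Δ; dark colours replicate 2). At Gnas, Kcnq1ot1, Peg10 and Impact both replicate 2 points lie above both replicate 1 points, while at Peg3 and Usp29 they lie below, and no gene has both XistΔ/Δ points above both WT points.

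By gene, the differences in summed width between genotypes had no common direction. In the order WT replicate 1, WT replicate 2, XistΔ/Δ replicate 1 and XistΔ/Δ replicate 2, Gnas had 3987, 6004, 3173 and 6207 bp, a difference of -306 bp. For Kcnq1ot1 the widths were 0, 2310, 907 and 2125 bp, a difference of 361 bp. Impact had 0, 1002, 501 and 1002 bp, and Peg10 had 0, 501, 0 and 630 bp. In each of the 7 genes with a peak the two-sided exact permutation test gave p = 1, with 2 libraries per genotype.

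Of 59 other imprinted genes, a list chosen from general knowledge, 11 (18.6%) had a peak in all 4 libraries and 36 had none. The widest, by mean percentile, was at Ube3a, a ubiquitin ligase gene of the Snrpn domain, with 2336, 3009, 2118 and 2916 bp in the same order of libraries. The next was the peak shared by Peg13 and Trappc9, with 1284, 1486, 1411 and 1567 bp. H13 followed with 911, 1361, 798 and 2552 bp, and Cd81 and Tssc4, near Kcnq1ot1, shared a peak of 786, 1180, 1097 and 1024 bp. Their mean percentile was 97 for Ube3a, 79.9 for Peg13 and Trappc9, 68.5 for H13 and 60.1 for Cd81 and Tssc4. Htr2a, a serotonin receptor gene, was the only one called in XistΔ/Δ replicates 1 and 2 (501 and 645 bp) and in no WT library, and none had the opposite pattern. Among genes linked to the transgene, the widest Vav1 peak measured 0, 1200, 2333 and 3461 bp and that of Commd10 501, 884, 626 and 1029 bp.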

How the data were processed

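YY1 libraries were made by the authors from cross-linked chromatin digested with micrococcal nuclease. Per the methods of the study, with versions as listed in the submitters' processing notes, reads were trimmed with Trim Galore, aligned to mm10 with Bowtie2 (version 2.3.5.1), filtered on mapping quality with SAMtools (version 1.10) and cleared of duplicates, and peaks were called with HOMER (version 4.9.1, whereas the methods name a later version for motif analysis and none for peak calling). The file headers give 1 calling run per library, without an input library, at a false discovery rate of 0.001 and 4 fold over the surrounding 10 kb, and neighbouring peaks of 500 bp were joined. The deposited lists give positions and a score, which is 1 for every peak and was not used. Header and label replicate numbers differ, and the labels were followed. A header number of unstated meaning is shared by libraries of the same replicate number, so values within replicate numbers are given.

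Peak positions were joined to GENCODE M21 windows, peaks of the 4 lists sharing at least 1 bp were merged into regions (19768), and widths, percentiles within a library and exact permutation tests were computed in Python (version 3.11.15) with NumPy (version 2.4.6) and SciPy (version 1.17.1). Benjamini-Hochberg adjustment ran over all regions with a peak in all 4 libraries. No peak ran past a GRCm38 chromosome end (0 peaks). Motifs were matched on the GRCm38 reference. Functions were tested on simulated lists. All 10 genes are named, with genes sharing their regions, the 5 other imprinted genes of highest mean percentile (6 names, through a tie) and those specific to a genotype, Xist, Vav1 and Commd10. The genes and lists were chosen with earlier results of these data known. No count or signal per peak was used here, so binding strength was not compared.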

Additional observations from a re-analysis of the deposited data

How the results depend on the processing

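All alternatives bear on at most 2 libraries per genotype, and on 1 in a genotype from which a library was left out. With so few libraries no p-value under 0.333 was possible, so the p-values are no measure of robustness. The count of the 10 genes with a peak in all 4 libraries (3) was 1 with peaks wider than the most frequent width or with lists of equal length, 6 with a rule of at least 2 libraries, and 3 to 5 when 1 library was left out (5 without WT replicate 1). Lists of equal length kept the first 9553 peaks of each list in file order. The difference XistΔ/Δ minus WT in genes with a peak (0.5) ranged from -1.5 (WT replicate 1 left out) to 2.5, with 0 when XistΔ/Δ replicate 2 was left out. That in peaks (2.5) was -1 without WT replicate 1 (range -1 to 6), and that in summed width (762 bp) ranged from -2088 bp (WT replicate 1 left out) to 3613 bp, with -1472 bp when XistΔ/Δ replicate 2 was left out. Regions wider in both XistΔ/Δ libraries (1) were 0 with peaks wider than the most frequent width or with lists of equal length, 2 by percentile, and 1 to 5 when 1 library was left out. The settings with 0 drop the XistΔ/Δ replicate 2 peak of Impact region 2 by its width or its place, so they are no test of it. Regions narrower in both (0) were 0 to 6 when 1 library was left out. With the replicate block, counted as narrower in XistΔ/Δ within both replicate numbers, they were 2 (Gnas regions 4 and 5). Shares of all regions were not computed for these alternatives. The block left the other differences as they were, with exact sign-flip p-values of 0.5 to 1. The labels do not pair same-numbered libraries by animal or batch, but they were alike in depth and shared a header number. The correlation of their width deviations was 0.296 across 7757 regions. Because the replicate numbers also differed in depth, this correlation cannot show whether same-numbered libraries were paired. Regions with a motif match (4) were 2 with the longer motif and 0 with regions called in all 4 libraries only. The width difference at Gnas region 4 (-867 bp) went from -1716 to -18.5 bp when 1 library was left out, alternatives chosen after the data were examined. The count of other imprinted genes (11) was 10 to 14. Windows of 3 kb, starts without gene bodies and merging under a stricter overlap (relative to the shorter peak) kept all of these values within 1.5 times or the same direction. A count over all 4 libraries has no version with the replicate block.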
